A study of Mus musculus with 15 samples.

Results

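The 9 dendritic cell genes described here, Flt3, Zbtb46, Xcr1, Clec9a, Batf3, Itgae, Clec10a, Ccr7 and Fscn1, were taken by symbol from a list of genes that mark these cells, and each has a row among the 46679 genes of the series. RNA was sequenced from the brains of C57BL/6 mice in 5 groups of 3 mice: naïve brain, which received no tumor cells, and tumors of the lines CT2A, GL261, 005 and Mut3 taken at the humane end-point after perfusion with PBS. The implanted mice were between 6 and 8 weeks of age, and 100000 cells were given of CT2A, GL261 and 005 against 500000 of Mut3. CT2A and GL261 are methylcholanthrene-induced lines, and GL261 is mutant in K-ras and p53. The other two came from engineered mice, 005 with activated H-ras and AKT on a p53+/- background, and Mut3 with loss of NF1 and p53. All 4 lines carried GFP and firefly luciferase, and each model is a single line, so that differences between models cannot be separated from differences between lines. The comparisons ask in which tumors the transcripts of dendritic cells are higher or lower than in naïve brain, and whether the tumors differ from each other.

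Dendritic cells take up antigen in tissue, travel to lymph nodes and prime T cells. Conventional dendritic cells arise under the cytokine receptor Flt3 and express the transcription factor Zbtb46. One subset (cDC1) depends on Batf3 and cross-presents antigen to CD8 T cells, another (cDC2) mainly primes CD4 T cells, and both turn on Ccr7 when they mature and leave the tissue. The parenchyma of the healthy brain holds few of them, and most lie in the meninges and choroid plexus. Several of the 9 genes are not limited to dendritic cells, since Ccr7 is also made by T and B cells, Itgae by T cells, and Fscn1 by neurons and tumor cells.

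Of the 9 genes, 6 had a promoter window in RefSeq (GRCm38.p6), taken as the 250 bases before the start, and those of Ccr7, Itgae and Clec10a were not in the table. The windows of 3 genes held no base of an annotated exon. That of Zbtb46 lies within the gene as GENCODE M21 gives it and is not shown, and those of Flt3 and Xcr1, which end at the base before the gene, are shown as the promoters of a lineage gene and of a cDC1 receptor, with motif matches in capitals.
Flt3, chr5:147400490-147400739, minus strand: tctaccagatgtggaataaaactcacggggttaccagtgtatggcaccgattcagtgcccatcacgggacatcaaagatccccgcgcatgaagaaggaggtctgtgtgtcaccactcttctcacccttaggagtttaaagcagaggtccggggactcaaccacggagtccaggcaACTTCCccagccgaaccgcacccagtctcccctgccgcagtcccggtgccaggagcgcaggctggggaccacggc
Xcr1, chr9:123862030-123862279, minus strand: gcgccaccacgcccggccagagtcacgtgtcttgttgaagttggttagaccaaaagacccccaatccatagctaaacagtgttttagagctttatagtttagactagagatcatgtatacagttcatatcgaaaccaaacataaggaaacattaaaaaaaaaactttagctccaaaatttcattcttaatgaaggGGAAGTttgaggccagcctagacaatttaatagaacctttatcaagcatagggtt
The motifs searched on both strands were AP-1 (TGANTCA), the PU.1 site (GGAAGT) and an IRF repeat (GAAA blocks with 2 bases between them). Flt3 and Xcr1 held a PU.1 match, at -75 to -70 and at -55 to -50 from the start. These letters occur in 19.7% (PU.1), 6.75% (AP-1) and 2.98% (IRF) of 32851 promoters of that length, so a match is a description of the window only.

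The estimated counts totalled 3105119 to 5161132 per sample in naïve brain and 5380395 to 13130158 in the tumors. Levels are given as CPM, the count scaled to the library size after TMM adjustment, and 3 counts, taken as the floor of detection, correspond to 0.214 to 0.811 CPM in the different samples (counting error only). Neuron markers, which serve as a check of the tissue, summed to 3290 to 5533 CPM in naïve brain and 129 to 1648 CPM in 11 of the 12 tumors. The exception was 005 replicate 3, which stood apart with 2947 CPM of neuron markers, 4075 CPM of oligodendrocyte markers and 17.8% mitochondrial counts. The 005 results that passed the test were therefore also computed without it. In bulk tissue, fewer cells of a type and less RNA per cell cannot be told apart.

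All 9 genes were low. On the TPM scale, which corrects for gene length, the median over the 15 samples was highest for the actin-bundling protein Fscn1 (2.40 TPM), followed by Batf3 (0.932) and the lectin Clec10a (0.858). It was 0.234 TPM for Zbtb46, 0.195 for Ccr7, 0.170 for Itgae, 0.0984 for Flt3, 0.0483 for Clec9a and 0.0447 for Xcr1. Among the 5 groups, 2 of the 9 genes, Ccr7 (adjusted p = 0.00345) and Batf3 (adjusted p = 0.0415), differed in edgeR's quasi-likelihood test at a Benjamini-Hochberg adjusted p under 0.05, against 52.1% of all 17481 genes tested. The number fell to 1 without any one of the naïve mice, without CT2A replicate 2, GL261 replicate 1 or 3, or Mut3 replicate 1 or 3.

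**Figure D1:**
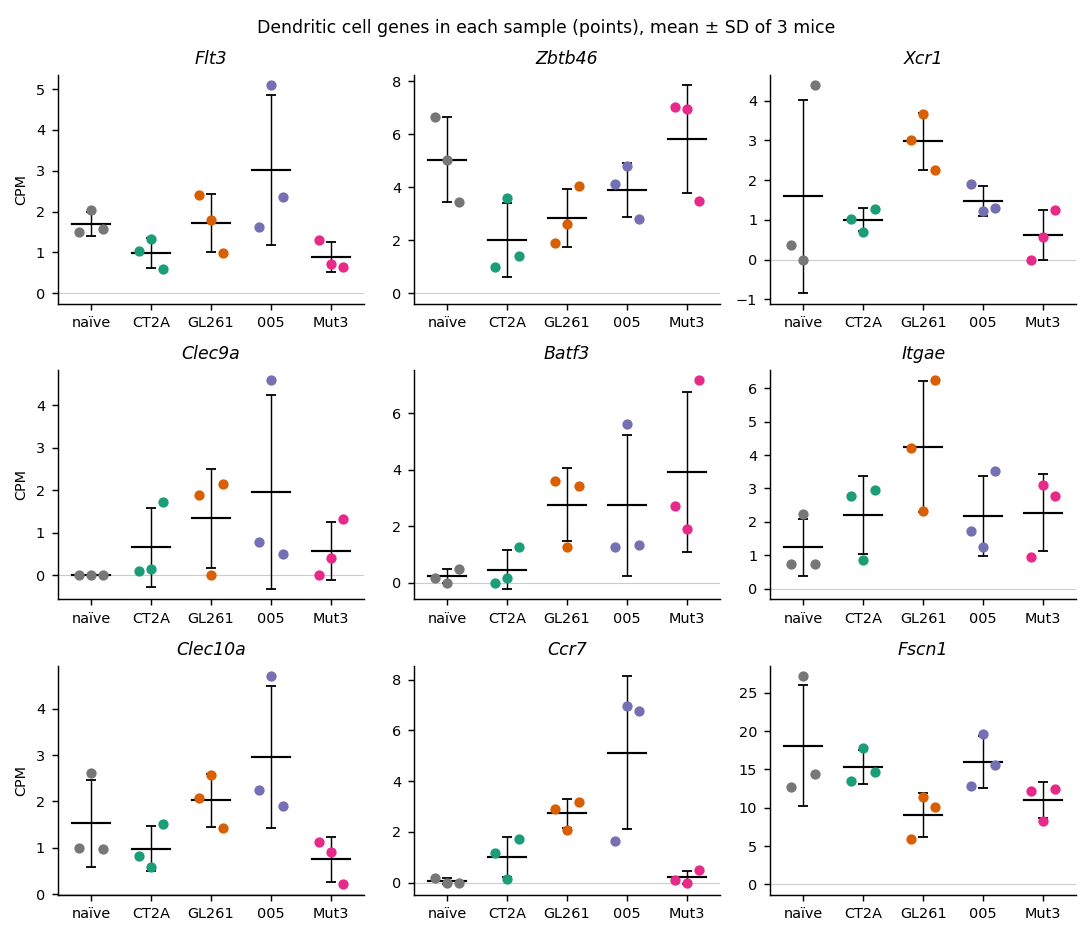
Level of each dendritic cell gene in CPM (linear vertical axis, a different range for each gene) in the 5 groups, with a point per mouse and the mean ± SD of 3 mice. Ccr7 lies highest in GL261 and 005, from 1.64 to 6.96 CPM, and at most at 0.514 CPM in naïve brain and Mut3.

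Ccr7, the chemokine receptor that guides mature dendritic cells and lymphocytes to lymph nodes, was higher in GL261 and 005 than in both naïve brain and Mut3. Naïve brain held 0.203, 0 and 0 CPM, a single count in all. CT2A held 1.18, 0.145 and 1.72 CPM, GL261 held 2.91, 2.09 and 3.18 CPM, and 005 held 1.64, 6.96 and 6.77 CPM. In Mut3 the levels were 0.111, 0 and 0.514 CPM. The values of GL261 and 005 lay above all those of naïve brain and Mut3, whereas CT2A overlapped with naïve brain and Mut3 at replicate 2 (0.145 CPM) and with 005 at replicate 3 (1.72 CPM).

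Against naïve brain, Ccr7 was the 1 member called in CT2A, GL261 and 005, where a call needed an adjusted p under 0.05 and a log2 fold change of 1 or more in either direction. The share of all genes called was 39.2% in CT2A (19.0% higher), 22.4% in GL261 (14.6% higher) and 12.7% in 005 (11.6% higher). The level was 34.7-fold that of naïve brain in GL261 (95% counting interval 5.97 to 1397, edgeR adjusted p = 0.0165) and 66.5-fold in 005 (11.8 to 2644, adjusted p = 0.00843). Without 005 replicate 3 the adjusted p of edgeR in 005 was 0.00613. The wide intervals come from the single count in naïve brain and cover counting error only. In CT2A the ratio was 13.5 (2.21 to 557), and its edgeR adjusted p of 0.0486 was under 0.05 in only 6 of the 21 alternatives that gave a value (range 0.0330 to 0.156). It was lost, for example, without any one of the naïve mice. The call in GL261 was lost without naïve replicate 3 (edgeR adjusted p = 0.0523), and that in 005 when only its own and the naïve samples were fitted (0.0506).

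Relative to Mut3, Ccr7 rose on the log2 scale by 3.47 ± 0.99 (SE) in GL261 (edgeR adjusted p = 0.0274) and 4.39 ± 1.00 in 005 (edgeR adjusted p = 0.00924). It was the 1 member called in each of these comparisons, in which 17.2% (11.1% higher) and 19.8% (14.0% higher) of all genes were called. Without 005 replicate 3 the difference between 005 and Mut3 was 4.06 (edgeR adjusted p = 0.0182). The call in 005 was kept under all 22 alternatives, whereas that in GL261 was kept under 18 of 22. It was lost without GL261 replicate 2 (adjusted p = 0.0513) or 3 (0.0718) and without Mut3 replicate 1 (0.0949) or 2 (0.0798), all in edgeR. Ccr7 did not pass in CT2A against Mut3, nor between any pair of CT2A, GL261 and 005.

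Batf3, the transcription factor required for cDC1 development, was higher in Mut3 than in naïve brain. Which cells of the tissue held it was not tested. Its levels were 0.185, 0 and 0.499 CPM in naïve brain and 2.71, 1.90 and 7.15 CPM in Mut3. CT2A held 0, 0.151 and 1.25 CPM, GL261 held 3.60, 1.27 and 3.40 CPM, and 005 held 1.25, 5.62 and 1.35 CPM. All samples of GL261, 005 and Mut3 lay above the naïve samples, while CT2A overlapped with them. With 3 counts in naïve brain, the level in Mut3 was 18.0-fold higher (95% counting interval 6.02 to 88.5, edgeR adjusted p = 0.0212). Batf3 was the 1 member called in Mut3, where 37.8% of all genes were called (17.9% higher). The call was lost without naïve replicate 1 or 2, or without Mut3 replicate 3, with an adjusted p of at most 0.0814 over 22 alternatives.

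The ratio of Batf3 to naïve brain was 11.6 in GL261 (counting interval 3.75 to 57.9, edgeR adjusted p = 0.0595) and 10.2 in 005 (3.38 to 50.7, adjusted p = 0.0836), and neither passed the test. Without 005 replicate 3 the edgeR adjusted p in 005 was 0.0352. The adjusted p was under 0.05 in 3 of 21 alternatives in 005 and in 6 of 21 in GL261. The latter included DESeq2 (0.0250) and limma (0.0194). The ratio was 2.07 in CT2A (0.546 to 11.5). The log2 difference of CT2A from Mut3 was -2.97 ± 1.07 (SE), with an edgeR adjusted p of 0.0798. The group with the highest mean of Batf3, Mut3, was the one with the lowest mean of Xcr1, a receptor of the same subset.

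The other cDC1 genes code for surface proteins. Xcr1, the receptor for the chemokine Xcl1, held 3.02, 3.68 and 2.24 CPM in GL261, the group with the highest mean. It was 0.378, 0 and 4.40 CPM in naïve brain, so that 1 naïve mouse exceeded every tumor. GL261 differed from naïve brain by 0.97 on the log2 scale, CT2A by -0.66, 005 by -0.088 and Mut3 by -1.26, and none passed in edgeR (adjusted p 0.388 to 0.963). Without naïve replicate 3 the sign turned in CT2A (2.08), 005 (2.65) and Mut3 (1.47), so the direction in these tumors rested on a single mouse. In CT2A the levels were 1.04, 0.697 and 1.28 CPM, in 005 1.90, 1.21 and 1.29 CPM, and in Mut3 0, 0.579 and 1.26 CPM.

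Clec9a, the receptor by which cDC1 recognise dead cells, had no count in any naïve mouse. CT2A held 0.112, 0.140 and 1.73 CPM, GL261 1.88, 0 and 2.14 CPM, 005 0.788, 4.58 and 0.506 CPM, and Mut3 0, 0.396 and 1.32 CPM. It was thus at 0 in 5 of the 15 samples, of which 1 was a GL261 tumor and 1 a Mut3 tumor. Against the floor of 3 counts over the naïve group, it was at least 5.90-fold higher in GL261 and at least 6.96-fold higher in 005 (edgeR adjusted p = 0.0940 and 0.0957), and the difference did not pass. The bounds were 2.82-fold in CT2A and 2.68-fold in Mut3. The gene overlaps Clec1b on chromosome 6 (129408862 to 129424763, plus strand, GRCm38) and shares 4.63% of its 31-base words with it, so reads of these words could be split between both.

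Itgae (CD103), an integrin of cDC1 and of tissue-resident T cells, had a count in every sample, which in naïve replicate 3 (2.76 estimated counts) was under the floor of detection. The levels were 0.750, 2.23 and 0.746 CPM in naïve brain, 2.78, 0.874 and 2.96 CPM in CT2A, and 4.22, 2.31 and 6.23 CPM in GL261. In 005 they were 1.74, 1.25 and 3.52 CPM and in Mut3 0.959, 3.11 and 2.76 CPM. GL261 did not overlap with naïve brain, at a log2 difference of 1.70 ± 0.71 (SE), but its edgeR adjusted p was 0.0882. Haspin lies on the other strand of the Itgae locus (chromosome 11, 73090583 to 73147446, GRCm38) and was higher in all 4 tumors, by 3.46 to 4.74 on the log2 scale. Whether the counting used strand is not given in the sources used here, and no 31-base word of the Itgae transcripts was found on the opposite strand.

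The lineage genes passed the test in no tumor against naïve brain. Flt3, the receptor through which Flt3 ligand expands dendritic cell precursors, held 1.50, 2.04 and 1.57 CPM in naïve brain. It was 1.04, 1.33 and 0.598 CPM in CT2A, 2.40, 1.80 and 0.980 CPM in GL261, 1.61, 5.10 and 2.36 CPM in 005, and 1.30, 0.724 and 0.641 CPM in Mut3. Every 005 tumor lay above every Mut3 tumor, with a log2 difference of 1.72 ± 0.61 (SE) and an edgeR adjusted p of 0.0576. All 3 CT2A tumors lay below the naïve mice for Flt3, and that difference did not pass.

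Zbtb46 had its highest means in Mut3 and naïve brain. The levels were 6.67, 5.02 and 3.44 CPM in naïve brain and 7.03, 6.97 and 3.48 CPM in Mut3. In CT2A they were 1.01, 3.59 and 1.40 CPM, in GL261 1.89, 2.62 and 4.05 CPM, and in 005 4.11, 4.81 and 2.79 CPM. The lowest mean, in CT2A, differed from naïve brain by -1.36 ± 0.55 (log2, SE, edgeR adjusted p = 0.0586) and from Mut3 by -1.56 ± 0.54 (edgeR adjusted p = 0.0717). Zbtb46 is also expressed by endothelial cells, and the summed endothelial markers were 152.7 to 184 CPM in naïve brain, 92.3 to 97.8 in CT2A and 89.4 to 99.2 in Mut3. In GL261 they were 154 to 210 CPM and in 005 106 to 196 CPM. The part of endothelial cells in the levels of Zbtb46 was not tested.

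Clec10a, a galactose-binding lectin of cDC2 and macrophages, held 2.25, 4.71 and 1.90 CPM in 005, the highest mean, and 1.13, 0.916 and 0.211 CPM in Mut3, the lowest. The difference was 2.02 ± 0.70 (log2, SE) with no overlap and an edgeR adjusted p of 0.0531. Naïve brain held 0.993, 2.61 and 0.980 CPM, CT2A 0.823, 0.587 and 1.52 CPM, and GL261 2.07, 2.57 and 1.43 CPM, which overlapped. Clec10a and its neighbour in sequence, Mgl2, share a coding run of 183 bases, shown because reads within it fit either gene.
Clec10a and Mgl2, shared coding sequence: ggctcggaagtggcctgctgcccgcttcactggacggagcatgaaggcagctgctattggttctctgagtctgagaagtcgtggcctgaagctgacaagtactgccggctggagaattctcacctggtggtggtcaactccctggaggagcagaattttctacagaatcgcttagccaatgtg
In all, 14.8% of the 31-base words of Clec10a occur in other genes, mostly in Mgl2. This share is not a measure of the error in the values of Clec10a, which was not tested. Mgl2 itself held 0.557 to 6.05 CPM.

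Fscn1, which bundles actin in the dendrites of mature dendritic cells, was counted most deeply of the 9 genes, with 28.3 to 218 counts per sample. Naïve brain held 12.7, 27.2 and 14.4 CPM, CT2A 13.5, 17.8 and 14.7 CPM, and 005 12.9, 19.6 and 15.6 CPM. GL261 held 5.86, 11.3 and 10.1 CPM and Mut3 12.2, 8.32 and 12.5 CPM. GL261 lay below all naïve samples, at a log2 difference of -0.99 ± 0.37 (SE, edgeR adjusted p = 0.0647). Of the pair of mature markers, Fscn1 thus had its highest group mean in naïve brain and Ccr7 its lowest.

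Between CT2A and GL261, between CT2A and 005 and between GL261 and 005, 0 of the 9 genes were called, against 7.77%, 4.11% and 2.62% of all genes. DESeq2 also called 0 of the 9 in each, against 2163, 1777 and 952 of all genes. At an unadjusted p under 0.05 in edgeR there were 1, 4 and 1. The share of all genes at that level is not given here, so these counts say nothing particular to the 9. In CT2A against Mut3, edgeR called 0 (12.8% of all genes), with 2 at an unadjusted p under 0.05, to which the same limit applies. DESeq2 called 2 there, Batf3 and Zbtb46, against 3205 of all genes. When the groups were ordered by their mean for each gene, no pair of neighbours passed the test for any of the 9 genes.

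**Figure D2:**
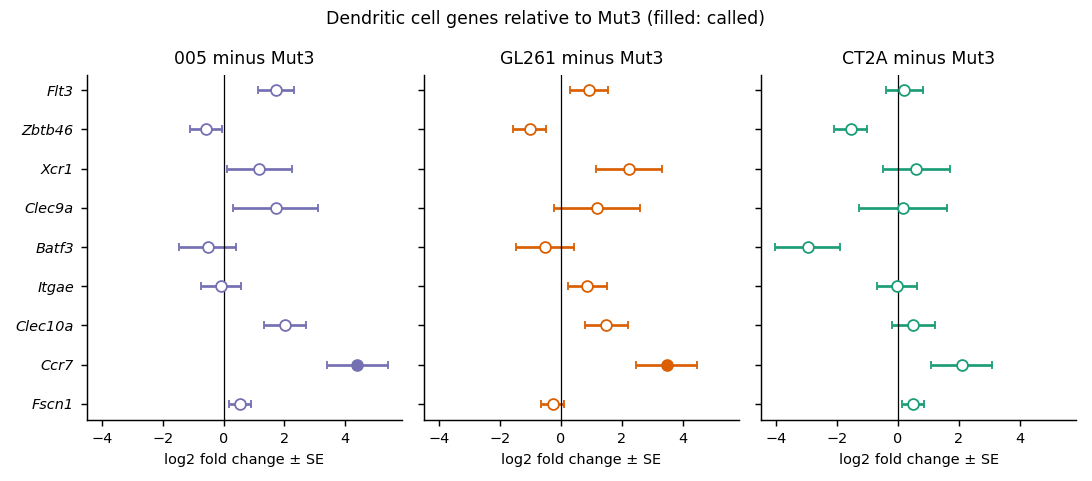
Log2 fold change ± SE (horizontal axis) of each dendritic cell gene in 005, GL261 and CT2A against Mut3 from edgeR. Filled points passed the test, which are Ccr7 in 005 (4.39) and in GL261 (3.47), and open points did not.

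The level of the 9 genes together was set against that of all leukocytes. Ptprc (CD45), which all leukocytes express, ranged from 1.67 to 4.43 CPM in naïve brain, 19.5 to 37.5 in CT2A, 37.7 to 85.7 in GL261, 46.2 to 260.6 in 005 and 2.28 to 11.1 in Mut3. The summed level of the 9 genes was 23.4 to 39.1 CPM in naïve brain, 21.5 to 27.2 in CT2A, 27.7 to 33.8 in GL261, 28.2 to 53.8 in 005 and 22.9 to 29.8 in Mut3. The sums of CT2A lay below those of GL261 and 005, and all other pairs of groups overlapped. Fscn1 was the largest term of this sum in every sample. Per 100 CPM of Ptprc, the sum had a median of 1387 in naïve brain and 272 in Mut3, against 73.0 in CT2A, 71.8 in GL261 and 60.9 in 005. The naïve ratios rest on few Ptprc counts (35.4 in all over the 3 mice), and their counting error is not given here. With Fscn1 as the largest term, the ratio is not a measure of dendritic cells per leukocyte. The lowest ratio of naïve brain and Mut3 (269) lay above the highest of the other tumors (110), while naïve brain overlapped with Mut3, and CT2A, GL261 and 005 overlapped with each other. The direction depended on the gene used as the scale. Per count of Itgam, an integrin of macrophages and microglia, the median of Mut3 lay above that of naïve brain by 1.77 on the log2 scale, against -2.35 per Ptprc count, and the other tumors differed from naïve brain by -1.13 to -1.45, against -4.25 to -4.51.

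Taken by itself, Ccr7 showed a pattern on that scale other than that of the sum. Per 100 CPM of Ptprc it was 0 to 4.57 in naïve brain, 0.388 to 6.01 in CT2A, 3.40 to 6.77 in GL261, 2.67 to 13.5 in 005 and 0 to 4.64 in Mut3. The groups that lay apart in CPM thus overlapped per Ptprc count. For naïve brain the overlap rested on replicate 1 (4.57, from 0.994 estimated counts), since replicates 2 and 3 were at 0. Ccr7 was not the only gene to differ from the sum, as Clec9a was at 0 per Ptprc in every naïve mouse and at up to 17.4 in Mut3. Batf3 held 28.9, 83.4 and 64.6 per 100 CPM of Ptprc in Mut3 and 4.17, 0 and 26.6 in naïve brain. In the other tumors it was at most 7.24.

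**Figure D3:**
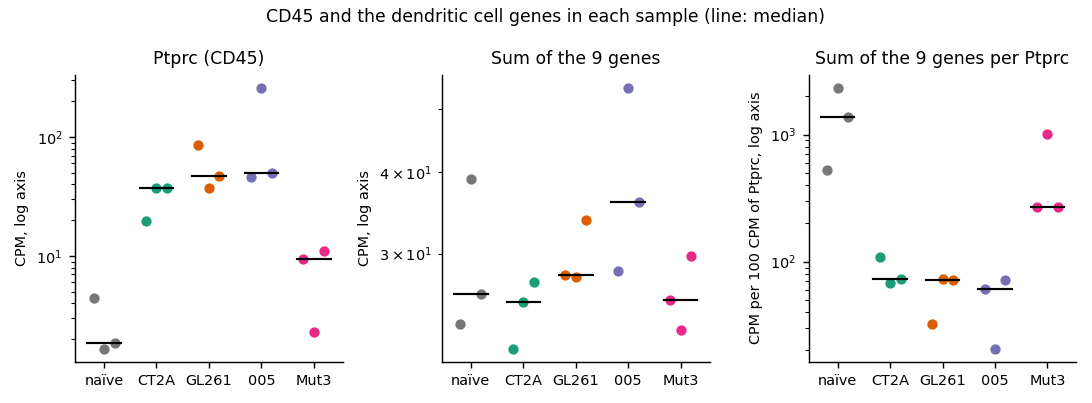
Level of Ptprc in CPM, summed level of the 9 dendritic cell genes in CPM, and their ratio per 100 CPM of Ptprc (log axes), with a point per mouse and the group median as a line. The ratio lies between 20.7 and 110 in CT2A, GL261 and 005 and between 269 and 2347 in Mut3 and naïve brain, where Ptprc held 35.4 counts in all over the naïve mice.

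Like Ccr7, T cell markers were highest in GL261 and 005. The summed T cell markers (Cd3d, Cd3e, Cd3g, Cd4 and Cd8a) were 4.31 to 29.1 CPM in naïve brain, 19.7 to 38.5 in CT2A, 57.5 to 103 in GL261, 51.7 to 295 in 005 and 6.15 to 17.2 in Mut3. Of the 4 markers tested, 3 (Cd3d, Cd3g and Cd8a) were higher than in naïve brain in each of CT2A, GL261 and 005 and 0 in Mut3. The remaining marker, Cd4, was lower in CT2A and in Mut3, and naïve brain held 1.32, 26.5 and 4.60 CPM of it, which overlapped with both. Against Mut3, 3 of 4 were higher in both GL261 and 005. Cd3e, the marker not tested, was listed at 0 in naïve replicates 1 and 3, CT2A replicate 2 and Mut3 replicate 2, and at most at 3.95 CPM. B cell markers summed to 7.77 and 9.28 CPM in 005 replicates 2 and 3, the samples with the highest Ccr7, and to at most 4.10 CPM elsewhere. They did not follow Ccr7 in GL261, where replicates 1, 2 and 3 held 4.10, 0.901 and 0.840 CPM, against 0.958 to 1.59 CPM in naïve brain.

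Macrophage and microglia markers were also highest in GL261 and 005, with 141.5 to 187 CPM in naïve brain, 247 to 360 in CT2A, 462 to 773 in GL261, 404 to 1012 in 005 and 57.1 to 162 in Mut3. Of these 8 markers, 5 were higher than in naïve brain in each of CT2A, GL261 and 005, 1 was lower in CT2A and 4 were lower in Mut3. The part of T cells, B cells and macrophages in the levels of Ccr7 and Clec10a was not tested.

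**Figure D4:**
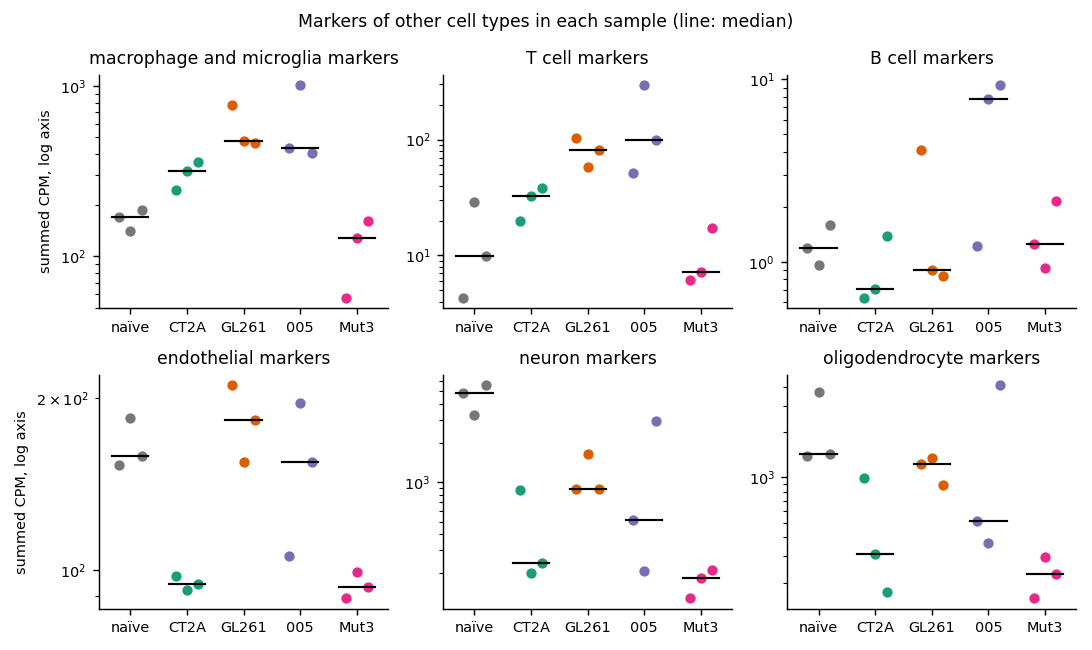
Summed CPM (log axes) of markers of macrophages and microglia, T cells, B cells, endothelial cells, neurons and oligodendrocytes in each mouse, with the group median as a line. T cell markers lie between 51.7 and 295 CPM in GL261 and 005, above all other samples, and 005 replicate 3 lies near naïve brain for neuron markers.

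The ligands of these receptors were also measured. Xcl1, the ligand of Xcr1 made by NK and CD8 T cells, was higher in 005 than in naïve brain by 4.53 ± 1.29 (log2, SE, edgeR adjusted p = 0.0332). Its levels were 6.22, 57.5 and 8.66 CPM in 005, 12.4, 9.93 and 8.58 CPM in GL261 and 0.919, 1.18 and 0.744 CPM in naïve brain, so that replicate 2 set most of the 005 mean. Ccl19, a ligand of Ccr7, held 2.86, 21.2 and 17.2 CPM in 005 and 0, 0.859 and 2.01 CPM in Mut3, and was higher in 005 by 3.77 (log2, edgeR adjusted p = 0.0393), a call that was lost without 005 replicate 3 (0.0692). Against naïve brain, which held 1.11, 0 and 2.98 CPM, its edgeR adjusted p in 005 was 0.0840. Csf2, a growth factor of dendritic cells, held at most 3.43 CPM and passed in no tumor against naïve brain, and Ccl21a, the other ligand of Ccr7, was at or under 1.00 CPM in all samples and was not tested. Flt3l was not analysed here.

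Further genes of the mature state were taken as a list, of which 8 were tested. In this list, 2 were higher in GL261 than in naïve brain, namely the chemokine Ccl17 (1.97, log2) and the costimulatory receptor Cd40 (4.07), and 1, Cacnb3, was lower (-2.58). In 005, 3 were higher, which were Ccl17 (1.87), Cd40 (4.42) and the cytokine subunit Il12b, whose ratio to the single count of naïve brain was 31.5 (counting interval 5.49 to 1260). In CT2A, Cd40 was higher (2.49) and Cacnb3 lower (-3.27). In Mut3 none was higher, and Cacnb3, Il4i1 and Cd83 were lower. The call of Il4i1 rested on naïve replicate 3 (4.30 CPM), since the gene was at 0 in the other naïve mice, and Mut3 held 0.148, 0 and 0 CPM. Against Mut3, 4 of the 8, Ccl17, Cacnb3, Cd40 and Cd83, were higher in GL261 and in 005, whereas edgeR called 0 in CT2A. The comparisons share their Mut3 or naïve samples, and the calls in 005 held without 005 replicate 3. Cd40 is also made by macrophages and B cells.

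Among the lineage regulators, Irf8, a partner of Batf3 in cDC1 that monocytes and microglia also express, was higher in GL261 (3.57, log2) and 005 (3.07) than in naïve brain and was the 1 called of 5 tested in each. Id2, which restrains E proteins in dendritic cell precursors, was lower in CT2A (-1.72) and Mut3 (-1.19). Of 5 other cDC1 genes tested, the RNA sensor Tlr3 was higher in CT2A (1.17), GL261 (2.28) and 005 (1.54), the adhesion molecule Cadm1 was lower in CT2A (-2.86), GL261 (-2.03) and Mut3 (-1.78), and Snx22 was higher in Mut3 (4.06). Against Mut3, Tlr3 and the regulator Spi1 (PU.1) were higher and Snx22 was lower in CT2A, GL261 and 005. Wdfy4, which cDC1 need for cross-presentation, and Irf8 were higher than in Mut3 in GL261 and 005 and were not called in CT2A. Of 3 other cDC2 genes tested, Sirpa was lower in CT2A (-2.63), GL261 (-1.41) and Mut3 (-3.66).

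Cadm1 and Sirpa are abundant in neurons, and of the 5 neuron markers all 5 were lower than in naïve brain in CT2A and in Mut3 and 1 in GL261 and in 005. The part of brain tissue in these differences was not tested. Over the 9 dendritic cell genes CT2A had a median log2 difference from naïve brain of -0.23, GL261 of 0.97, 005 of 0.84 and Mut3 of 0.19, beside -0.039, -0.081, 0.011 and 0.11 over all genes tested. The GL261 median was the value of Xcr1, which did not pass (edgeR adjusted p = 0.517) and ranged from 0.38 to 3.71 over 22 alternatives.

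**Figure D5:**
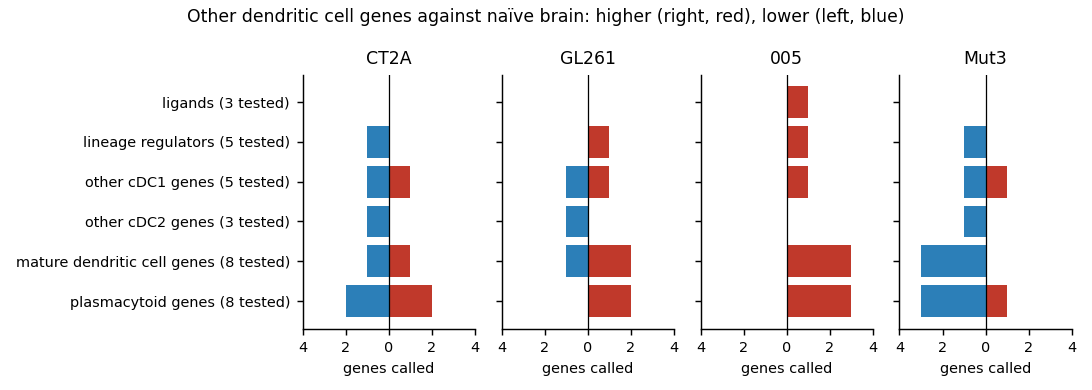
Number of genes called higher (right) and lower (left) than naïve brain in each list of other dendritic cell genes, for CT2A, GL261, 005 and Mut3 (edgeR, the same criteria as for the 9 genes). For mature genes, 3 of 8 are higher in 005 and 3 of 8 are lower in Mut3. The latter include Cacnb3, whose group mean was highest in naïve brain. Of all genes tested, 11.6% were higher in 005 and 37.8% were called in Mut3.

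The genes whose levels were most alike to each of the 9 were taken by Pearson correlation of log2 CPM over the 15 samples, among 16084 genes, as a description. The samples share their groups and their tissue content, which also enters these values. For Ccr7 they were Pik3cg (r = 0.955), Tnfrsf4 (0.948) and Gimap7 (0.931), which are leukocyte genes, and for Clec10a they were Csf1r (0.877), the receptor of macrophage growth factor, Rnf114 (0.857) and Nrros (0.856). Clec9a was most like Arap1 (0.909), Tcrg-C2 (0.871), a T cell receptor constant gene, and Sectm1a (0.866). Batf3 was most like Mrpl52 (0.925), Gm10721 (0.908) and Dcps (0.882), and Xcr1 like Ubxn8 (0.855), Ang (0.828) and Icam2 (0.825). The closest genes reached 0.881 for Fscn1 (Foxj2), 0.835 for Zbtb46 (Ddx56), 0.826 for Flt3 (Cndp2) and 0.809 for Itgae (Agbl5). Among the 9 genes themselves the highest values were 0.763 between Flt3 and Clec10a and 0.709 between Clec9a and Batf3.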

How the data were processed

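RNA from 15 samples, 3 mice in each of 5 groups, was sequenced, and the authors mapped the reads with STAR v2.4.2a against GENCODE mouse. They used Picard tools to mark duplicates and RNA-SeQC for metrics. The submitters' processing notes also name Salmon, DESeq2 1.18.1 and mm10, without a role. The authors deposited expected counts, not normalized and not whole, and TPM values, scaled within each sample and by gene length. Both tables hold one set of measurements, since the count to TPM ratio was the product of a gene and a sample factor (4644 genes over 50 counts in all samples, largest log2 residual 9.6e-10). The annotation release and the use of strand are not given in the sources used here. Gene positions come from GENCODE M21 (GRCm38), which names 46201 of the 46679 identifiers.

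Samples were grouped by their labels. Counts were rounded to whole numbers and filtered with filterByExpr in edgeR 4.0.16 (R 4.3.3), leaving 17481 genes, all 9 dendritic cell genes among them. Libraries were scaled by TMM and fitted together by the quasi-likelihood test with a mean per group. Adjustment was over all genes tested. Where naïve brain held 1 to 3 counts, ratios of the summed counts over the summed library sizes with 95% counting intervals are given in place of fitted values. The steps were tested on simulated data. The genes named are all 9, the ligands, and those of the other lists that were called or had the highest or lowest fold change. The genes and lists were chosen with earlier results of these data known. The alternatives were DESeq2 1.42.0, scaling by library size without TMM, no filter or at least 10 counts in every sample, only the groups compared, no threshold on the fold change, limma 3.58.1 on log2(TPM + 0.1), the replicate number as a block, and each sample left out. No sequencing batch is named in the labels. The p-values measure the spread between mice of one line. A further genetic alteration of the CT2A and Mut3 lines is not reported here.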

Additional observations from a re-analysis of the deposited data

Results flagged for a closer look

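The difference of Ccr7 from naïve brain was not the same in every tumor. Tested directly, it was larger in GL261 than in Mut3 by 3.47 on the log2 scale (edgeR adjusted p = 0.0274) and larger in 005 than in Mut3 by 4.39 (edgeR adjusted p = 0.00924). In both cases all 3 tumors of the former line lay above all 3 Mut3 tumors. Dixon's test for an outlying sample was not run, since groups of 3 are too small for it.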

How the results depend on the processing

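The low counts of naïve brain limit every comparison with it, since 3 counts are up to 0.811 CPM there. With at least 10 counts in every sample only Fscn1 of the 9 genes remained. It was called in GL261 against naïve brain (log2 -1.03, edgeR adjusted p = 0.0424), and the count was 0 in CT2A, 005 and Mut3 against naïve brain, in GL261 and 005 against Mut3 and among the groups. DESeq2 called 2 in CT2A, 3 in GL261 and 3 in 005 against naïve brain, and 2 in CT2A and 3 in 005 against Mut3, where it called 7401, 5167, 3375, 3205 and 4319 of all genes (6858, 3913, 2217, 2231 and 3463 in edgeR). No filter gave 0 in CT2A and 2 in GL261, and only the groups compared gave 0 in CT2A and in 005 (222 of all genes in 005). The all-gene numbers without the filter, and in CT2A with only its groups, are not given here. With limma on log2(TPM + 0.1) the counts against naïve brain were 4 in GL261, 2 in 005 and 3 in Mut3, where it called 7234, 4456 and 7043 of all genes (3913, 2217 and 6601 in edgeR), against Mut3 1 in CT2A and 2 in 005 (1790 and 1979 of all genes, 2231 and 3463 in edgeR), and 6 among the groups (10212 of all genes, 9100 in edgeR). The number of all genes called in 005 against naïve brain ranged from 222 (only the groups compared) to 6535 (without 005 replicate 3).

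With each sample left out in turn, 0 to 2 genes were called in CT2A and in GL261 against naïve brain, 1 to 3 in 005, 0 to 1 in Mut3, 0 to 1 in CT2A and in GL261 against Mut3, 1 to 2 in 005 against Mut3 and 1 to 2 among the groups. The cause of these changes was not tested. Samples that share a replicate number are different mice, and the number did not pair them, since 1 of 30 pairs correlated over 0.1 (range -0.331 to 0.262). With the replicate number as a block, 0 genes were called in CT2A against naïve brain, and Xcr1 against naïve brain was 0.47 in 005 in place of -0.088 (log2). It also changed sign there with limma (0.022). With a sample left out, Xcr1 ranged from -0.56 to 2.65 in 005, from -1.13 to 2.08 in CT2A and from -2.29 to 1.47 in Mut3, and its highest values came without naïve replicate 3.

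Set against naïve brain, the median of the 9 summed genes per Ptprc count had a log2 ratio of -4.25 (CT2A), -4.27 (GL261), -4.51 (005) and -2.35 (Mut3). Per Itgam count these were -1.45, -1.13, -1.15 and 1.77, and in CPM they were -0.040, 0.097, 0.47 and -0.033.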

Other observations

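Plasmacytoid dendritic cells, which make type I interferon, were described by 10 further genes, of which 8 were tested. Bst2, also induced by interferon in many cells, was higher than in naïve brain in all 4 tumors, with 4.94 for CT2A, 5.87 for GL261, 2.92 for 005 and 2.78 for Mut3 (log2, edgeR adjusted p at most 0.00254). Naïve brain held 2.67 to 4.82 CPM of it and GL261 141.5 to 292 CPM. Ly6d, found on lymphoid and plasmacytoid precursors, was higher in GL261 (2.40) and 005 (3.36), and Runx2 in CT2A (2.13) and 005 (2.65). Siglech, which microglia also express, was lower in Mut3 (-3.14). Of the 8 genes, 2 were higher and 2 lower for CT2A, and 2 and 0 for GL261. The numbers were 3 and 0 for 005, and 1 and 3 for Mut3. Against naïve brain, Mut3 had 37.8% of all genes called in either direction, CT2A 39.2%, 005 12.7% and GL261 22.4%. Whether the plasmacytoid counts differ from these shares was not tested.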
